A study of Mus musculus with 6 samples.

Results

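The long intergenic RNA probes of the Agilent mouse catalogue were taken as the non-control probes whose names begin with A_30_P, and 15955 of the 91188 distinct probes on the array met this rule. Tumor RNA was measured in 3 Hepa1-6-bearing C57 BL/6 mice given GLE, an extract of the mushroom Ganoderma lucidum, and in 3 Hepa1-6-bearing C57 BL/6 mice of the model group, each mouse on its own array. The GLE mice received the medium dose of 0.023 g per day and the model mice received 0.2 ml of saline, both for 28 days, and the labels give an age of 28 d for all of them. The mice were male, and Hepa1-6, a mouse hepatoma cell line, was grown under the skin of the flank, so that each tumor also held cells of its host. The files pair no probe with a gene, so neither the transcript of each probe nor the cell-type markers of the tumor were checked, and a lower signal cannot tell fewer cells of a type from less RNA per cell.

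Long intergenic non-coding RNAs are transcribed from DNA between protein-coding genes, and many are spliced and carry a poly(A) tail as mRNAs do. Most are present at low levels and in few tissues, and their strand is often uncertain when they are first annotated from sequencing or from chromatin marks. Some are hosts of microRNAs, some start next to a coding gene and run away from it, and a few act on chromatin or on the cell cycle. Catalogue probes for coding and other annotated transcripts, with names beginning A_51_P, A_52_P, A_55_P or A_66_P (39194 probes), served for comparison.

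Each A_30_P probe was 60 bases long, and each was printed in 2 spots, while nearly all comparison probes were printed in 1 spot. The probes below are shown because they carry the results on treatment: the first pair was higher and the second pair lower in the GLE group, by the largest differences among probes that passed the threshold. They are written 5′ to 3′ in lower case, and the sequence tables used here did not place them in the genome.
A_30_P01031976: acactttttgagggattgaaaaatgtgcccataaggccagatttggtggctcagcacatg
A_30_P01032519: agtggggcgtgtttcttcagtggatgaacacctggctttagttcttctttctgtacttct
A_30_P01025113: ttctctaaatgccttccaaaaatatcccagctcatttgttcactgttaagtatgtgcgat
A_30_P01032666: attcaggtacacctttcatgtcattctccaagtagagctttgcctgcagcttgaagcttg

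The 5 brightest A_30_P probes are shown for their base composition. Capitals mark the motif CCTCC, which was searched on the printed strand only, and these probes were not placed in the genome.
A_30_P01020015: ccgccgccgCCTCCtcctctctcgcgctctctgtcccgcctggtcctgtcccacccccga
A_30_P01027833: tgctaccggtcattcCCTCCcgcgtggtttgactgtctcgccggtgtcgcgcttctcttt
A_30_P01031448: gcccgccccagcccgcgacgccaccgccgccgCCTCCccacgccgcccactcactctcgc
A_30_P01023888: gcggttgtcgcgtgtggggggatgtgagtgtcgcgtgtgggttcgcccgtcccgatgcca
A_30_P01026106: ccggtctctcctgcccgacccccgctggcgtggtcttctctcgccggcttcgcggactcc

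The next pair reads the opposite strands of 1 place, just before the start of Tug1, a widely expressed long non-coding RNA, at chr11:3648921-3648992 (GRCm38.p6, from RefSeq). Capitals mark the 48 bases that the probes share as complements.
A_30_P01022792: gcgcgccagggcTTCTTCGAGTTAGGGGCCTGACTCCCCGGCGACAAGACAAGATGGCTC
A_30_P01023757: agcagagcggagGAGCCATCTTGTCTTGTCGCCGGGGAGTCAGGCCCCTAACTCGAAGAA

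Of the A_30_P probes, 10 held a whole mature microRNA of RefSeq, and 7 of these are shown. The 7 were chosen after their values were seen. Capitals mark the mature microRNA, or its complement where the probe runs against it. In order they belong to miR-92a-3p (complement), miR-92a-2-5p, let-7c-5p, let-7c-2-3p, let-7c-2-3p (complement), miR-410-3p and miR-363-3p.
A_30_P01026535: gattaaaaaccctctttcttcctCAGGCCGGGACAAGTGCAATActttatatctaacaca
A_30_P01033592: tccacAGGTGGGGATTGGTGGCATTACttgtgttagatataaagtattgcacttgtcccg
A_30_P01031395: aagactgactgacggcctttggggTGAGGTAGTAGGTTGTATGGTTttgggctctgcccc
A_30_P01033484: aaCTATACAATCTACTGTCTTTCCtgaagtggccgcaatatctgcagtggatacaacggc
A_30_P01028684: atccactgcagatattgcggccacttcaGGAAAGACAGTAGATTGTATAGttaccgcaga
A_30_P01029937: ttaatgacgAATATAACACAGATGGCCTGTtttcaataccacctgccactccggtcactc
A_30_P01026554: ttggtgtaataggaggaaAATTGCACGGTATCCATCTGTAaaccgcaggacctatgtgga

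Slide 1 held the 3 GLE arrays together with model replicate 1, and slide 2 held model replicates 2 and 3. With the slide as a block, every difference given below is therefore the GLE mean minus model replicate 1 alone. Levels are given as log2 of the signal intensity minus the 75th percentile of all probes of the array, which lay between 116.7 and 161.1 intensity units, so that 0 is the level at that percentile. Outlier spots were dropped (3 to 12 spots of these probes per array), and no spot was saturated. In GLE replicate 3, 17.7% of the A_30_P spots shared the lowest value of the array, and levels there have no order among themselves. Nothing in the labels says whether the RNA was extracted in batches. P-values set the group difference against the spread between tumors within a group. With 1 array per tumor, that spread also holds the array and, in the model group, the slide.

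Detection of a probe meant that 50% or more of its spots on that array were marked as well above background. In GLE replicates 1, 2 and 3, 59.2%, 58.1% and 63.5% of the A_30_P probes were detected, and in model replicates 1, 2 and 3, 59.5%, 54.6% and 56.0%. The groups overlapped, since model replicate 1 lay above GLE replicates 1 and 2. The lowest shares belonged to both arrays of slide 2, and the part of the slide in them was not tested. The comparison probes were detected more often on every array, from 64.0% in model replicate 2 to 70.7% in GLE replicate 3. The gap is larger spot by spot, since an A_30_P probe with 1 of its 2 spots above background was counted: 51.7% to 59.7% of single A_30_P spots were well above background.

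The A_30_P probes divided into those seen in every tumor and those seen in none. On all 6 arrays 8015 probes (50.2%) were detected, and on no array 4795 (30.1%). The comparison probes had 59.8% and 25.1% in these classes. Between these ends, 1190 A_30_P probes were detected on 1 array only, 585 on 2 arrays, 453 on 3, 400 on 4 and 517 on 5. In all, 9385 probes (58.8%) were detected on at least 3 arrays and entered the test, against 67.2% of the comparison probes. By the more lenient mark of the scanner software, a signal that is positive and significant, 76.1% to 82.3% of A_30_P spots and 82.0% to 86.4% of comparison spots passed. Counted by probe, where 1 of 2 spots sufficed for an A_30_P probe, the order was reversed on all 6 arrays, with 82.6% to 88.0% of A_30_P probes and 82.0% to 86.4% of comparison probes.

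The A_30_P probes were also dimmer as a class. Their median level lay between −2.91 and −2.74 on the 6 arrays, and that of the comparison probes between −1.48 and −1.35. The difference of these medians was −1.30 to −1.44 on the log2 scale, on the arrays of both groups. A level above 0 was reached by 20.5% to 21.3% of A_30_P probes and by 35.2% to 35.9% of comparison probes. Probe levels depend on base composition as well as on RNA, so these are levels of classes and not of single transcripts.

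Base composition moved with detection in both classes. The median GC content was 45% for the A_30_P probes and 41.7% for the comparison probes, and 3.77% of the former against 0.592% of the latter had a GC content of at least 60%. Of the A_30_P probes with a GC content of 35% to under 40%, 38.6% were detected on at least 3 arrays, and at 45% to under 50% it was 61.2%. From 60% on, 93.7% were detected. The comparison probes went from 55.1% to 74.1% and 94.0% over the same steps, so the classes lay apart at low GC content and close together at the highest. With the comparison probes weighted to the GC content of the A_30_P probes, 70.3% of them were detected, and the gap between the classes was not narrowed.

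Detection moved further with the balance of C and G on the printed strand. Among A_30_P probes with at least 11 more G than C, 52% were detected on at least 3 arrays, at a median level of −3.43. With 6 to 10 more G it was 44.7%, at −3.98, so the lowest share was not at the most G-rich end. With 1 to 5 more C than G it was 62.1%, with 6 to 10 more C it was 80.2%, and with at least 11 more C it was 89.3%, at a median level of 1.00. The median GC content was 45% in each of these groups, but beyond the median the groups were not matched in GC content. The C-rich group with at least 11 more C was detected at 86.2% to 91.6% on each of the 6 arrays, and the group with 6 to 10 more G at 39.3% to 50.9%. Comparison probes had 65.6% with at least 11 more G, 60.1% with 6 to 10 more G and 87.7% with at least 11 more C. The A_30_P probes therefore fell short of the comparison probes where G was in excess (44.7% against 60.1%), and did not where C was in clear excess (89.3% against 87.7%). These are shares over probes of the same 6 arrays, given as a description.

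The brightest probes had the same bias. Of the 100 brightest A_30_P probes 89 held more C than G, with a median of 21 C and 12 G, against 47.8% of all A_30_P probes. The motif CCTCC was present in 52 of these 100 and in 6.64% of all A_30_P probes, and its complement GGAGG in 7 of the 100 and in 6.51% of all. Among comparison probes CCTCC was in 24 of the 100 brightest and in 5.31% of all. The excess of C was present there too: 79 of those 100 held more C than G, with a median of 19 C and 12 G, against 45.7% of all comparison probes. The motif was chosen after the brightest sequences had been seen, and a match in a probe is only a match of letters.

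The 5 brightest probes were alike in all tumors. A_30_P01020015, with 34 C and 11 G, had levels of 11.67, 11.70 and 11.36 in GLE replicates 1 to 3 and 11.70, 11.77 and 11.80 in model replicates 1 to 3. The GLE minus model difference was −0.18 ± 0.16 (SE, n = 3 per group), and the groups overlapped. A_30_P01027833, A_30_P01031448, A_30_P01023888 and A_30_P01026106 had mean levels of 11.45, 11.38, 11.11 and 11.06, and differences between −0.15 and 0.01. None of the 5 passed the threshold of a fold change of at least 2 at an unadjusted P-value under 0.05. A_30_P01023888 was the exception in composition, with 27 G and 14 C.

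Many A_30_P probes were designed against both strands of 1 place, which lets the strands be read side by side. Overlaps of at least 25 bases on opposite strands formed 1981 pairs, and 3652 probes (22.9%) took part in them. In 813 pairs (41.0%) both strands were detected on at least 3 arrays, in 796 (40.2%) a single strand was, and in 372 neither was. In 477 pairs 1 strand was detected on all 6 arrays and the other on none. Among the 766 pairs with a single detected strand whose detected probe held unequal numbers of C and G, it held more C than G in 568 (74.2%). Of the 101 pairs that were complements over all 60 bases, 42 had both strands detected, 43 a single strand and 16 neither.

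Probes that overlapped on the same strand were more alike. There were 371 such pairs. Both probes were detected in 248 (66.8%), and a single probe in 45 (12.1%). Over these 248 pairs the GLE minus model difference of the probes had a correlation of 0.66, and the median gap between the differences of a pair was 0.13 on the log2 scale. Over the 813 opposite-strand pairs with both strands detected the correlation was 0.17, and the median gap was 0.28. Pairs share their arrays and, within a pair, their place in the genome, and some probes stand in more than 1 pair, so these correlations describe the array and have no test. The difference had the same sign in 178 of the 248 same-strand pairs (71.8%) and in 450 of the 813 opposite-strand pairs (55.4%).

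Both strands of the Tug1 pair were detected on all 6 arrays. A_30_P01023757, on the strand of Tug1, had levels of 0.31, 0.35 and 0.25 in GLE replicates 1 to 3 and 0.38, 0.55 and 0.55 in model replicates 1 to 3. A_30_P01022792, on the other strand, had 0.42, 0.39 and 0.35 against 0.45, 0.45 and 0.62. The GLE values lay below the model values without overlap for both, by −0.19 ± 0.14 and −0.12 ± 0.14 (SE, n = 3 per group), and neither passed the threshold. For A_30_P01022792 the direction turned between its spots, with a difference of −0.33 from the first spot alone and 0.10 from the other. Both probes lie before the annotated start of Tug1 whose window they matched, so they lie in its promoter region. Whether Tug1 has other annotated starts was not checked.

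In all, 168 A_30_P probes matched the 300-base windows of RefSeq around gene starts over their whole length, and 162 of them fell in the window of 1 gene only (97 genes). Of these 162, 116 lay wholly before the start of the window they matched. Some genes have windows at more than 1 start, so a probe before 1 start can lie after another. This was so for A_30_P01025349 of Aak1, which lies after the start that A_30_P01019612 spans. On the strand opposite to the gene 67 of 85 probes (78.8%) were detected on at least 3 arrays, and on the gene's own strand 46 of 77 (59.7%). For protein-coding genes it was 36 of 40 on the opposite strand and 26 of 38 on the gene's own strand, and for long non-coding RNA genes 31 of 45 and 20 of 39. In the windows of 17 genes both strands held probes, and in 10 of these both strands were detected.

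Of the 28 long non-coding RNAs looked for by name, 3 had probes in these windows: Gas5, Tug1 and Lockd. Gas5, a host of small nucleolar RNAs that is known for its rise in growth arrest, had 3 probes in a row on its own strand before its start. The farthest, A_30_P01032943 at chr1:161034955-161035014, had levels of 0.70, 1.13 and 0.77 in the GLE group and 0.83, 0.83 and 0.93 in the model group. The next, A_30_P01026655 at chr1:161035015-161035074, was detected on 5 arrays, at −3.05, −2.69 and −2.77 against −2.53, −3.29 and −2.14. The nearest, A_30_P01029558 at chr1:161035075-161035134, was detected on 1 array only. The windows of the first and second also belong to Zbtb37, which runs the other way, and no Gas5 probe passed the threshold. Lockd, transcribed downstream of the cell-cycle inhibitor gene Cdkn1b, had 1 probe, A_30_P01023527 at chr6:134929009-134929068, which was detected on no array.

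Of the 113 probes of gene starts detected on at least 3 arrays, 3 passed the threshold (2.65%, against 1.74% of all tested probes), and they were named after their values were seen. A_30_P01025916, opposite to Aak1 (an endocytic kinase) at chr6:86849058-86849117, had levels of 2.03, 2.51 and 1.95 in the GLE group and 3.04, 4.68 and 3.40 in the model group. It was lower by −1.55 ± 0.42 (SE, n = 3 per group; limma, unadjusted P = 0.00713, adjusted P = 0.462), without overlap. A_30_P01031686, on the strand of Zfp553 (a zinc finger gene) at chr7:127232815-127232874, had a difference of −1.46 ± 0.60, with model replicate 2 at 0.89 and the other 5 tumors between −2.34 and −0.95. A_30_P01031053, opposite to Trip11 (a Golgi protein gene) at chr12:101913246-101913305, had levels of −3.08, −3.05 and −4.62 in the GLE group and −4.16, −5.35 and −5.45 in the model group. Its difference was 1.40 ± 0.51, the groups overlapped, and it was detected on 3 arrays. With the slide as a block the differences were −0.88, −1.05 and 0.58, and none of the 3 passed.

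The microRNA hairpins were read on both strands in 2 places. At the miR-92a-2 hairpin (its miR-92a-3p lies at chrX:52741854-52741874), A_30_P01026535 runs against the hairpin and was detected on all 6 arrays. Its levels were −0.49, −0.27 and −0.77 in the GLE group and −0.69, −1.28 and −0.84 in the model group, which overlapped. A_30_P01033592 reads the hairpin's own strand and was detected on no array, and A_30_P01026554, on the same strand over miR-363-3p (chrX:52741697-52741718), was detected on none either. Both microRNAs belong to the miR-106a-363 cluster. A_30_P01026535 held 16 C and 8 G, and A_30_P01033592 and A_30_P01026554 each held 10 C and 17 G. Detection moved with this balance over all A_30_P probes, and its part here was not tested. At the let-7c-2 hairpin (let-7c-5p at chr15:85706616-85706637), A_30_P01031395 on the hairpin's strand was detected on all arrays, at −2.57, −2.07 and −2.23 against −2.04, −2.02 and −2.22. The other let-7c-2 probes were detected on 0 arrays (A_30_P01033484, same strand) and on 1 array (A_30_P01028684, opposite strand).

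A_30_P01029937, over miR-410-3p (chr12:109743764-109743784) in the imprinted Dlk1-Dio3 region, was detected on all 6 arrays. Its levels were 0.48, 0.37 and 0.85 in the GLE group and 0.44, 1.03 and 0.71 in the model group, a difference of −0.16 ± 0.21 (SE, n = 3 per group). Of the 10 probes that held a mature microRNA, 4 were detected on all 6 arrays and none passed the threshold. A probe of 60 bases cannot tell a mature microRNA from its precursor or its host transcript, and the label used here marks cRNA made from total RNA.

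The effect of GLE on these probes was asked with limma over all 53908 tested probes. A fold change of at least 2 at an unadjusted P-value under 0.05 was found for 125 of the 9385 tested A_30_P probes (1.33%), against 1.74% of all tested probes. In the GLE group 55 were higher (0.586%, against 1.04% of all) and 70 were lower (0.746%, against 0.703% of all). Higher probes made up 44.0% of the called A_30_P probes, 59.6% of all called probes and 70.4% of the called comparison probes. With each array scaled to its median, which moved the median difference of all tested probes from 0.014 to −0.084, the shares were 24.5% and 40.1% for A_30_P and all probes. After Benjamini-Hochberg adjustment in limma 0 A_30_P probes had an adjusted P-value under 0.05 (the lowest was 0.462), while 1049 had an unadjusted P-value under 0.05. The methods' t-test was also run, by which 51 passed the threshold (0.543%, against 0.569% of all tested probes), and 0 after adjustment.

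Over all tested probes the median size of the difference was 0.21 for both the A_30_P and the comparison probes. Of the 9385 tested A_30_P probes, no called probe reached a 4-fold difference. It was reached by 108 of the 26300 tested comparison probes and by 114 of all 53908 tested probes. Nearly all of these were thus comparison probes, and tested probes outside both classes rarely reached it either. The A_30_P values are means of 2 spots, and nearly all comparison values come from 1 spot. The called A_30_P differences were 1 to 1.68 in size where higher and 1 to 1.87 where lower. Over all tested A_30_P probes the median difference was 0.01, with 5% of probes below −0.61 and 5% above 0.59, against −0.59 and 0.72 for the comparison probes. For the comparison probes weighted to the same signal the median difference was 0.02, and 2.69% were called, 1.98% higher and 0.715% lower. The shares of lower probes were therefore close between the classes (0.746% against 0.715%) and those of higher probes lay apart (0.586% against 1.98%). Without GLE replicate 3 the higher shares were 0.389% against 0.682%, and the lower shares 0.912% against 1.22%. With any other single array left out, the higher share also lay below that of the comparison probes. From the first spot of each A_30_P probe alone the lower share was 1.53% against 0.667%, and from the other spot 0.709% against 0.664%, while the higher share lay below that of the comparison probes from either spot.

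Higher and lower probes came from different signal levels. The 55 higher probes had a median level of −2.52 in the GLE group and −3.71 in the model group, near background, and 23 of them were detected on 3 arrays only. The 70 lower probes had median levels of −0.39 and 0.63, and 59 of them were detected on all 6 arrays. Model replicate 2 was the highest of the 6 tumors in 57 of the 70 lower probes, and the lowest in 31 of the 55 higher probes. Without that replicate 58 A_30_P probes passed the threshold, 31 higher and 27 lower.

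Slide was part of the contrast, since the other 2 model arrays lay on slide 2. The comparison within slide 1 and the slide block rest on the same single model tumor, so they are not separate checks. Within slide 1 the median difference between the GLE mean and model replicate 1 was 0.79 for the 55 higher probes and −0.73 for the 70 lower probes, against 1.37 and −1.45 for model replicates 2 and 3. The direction within slide 1 was the same for 55 of 55 and for 69 of 70, although these probes were chosen on the same values, and a 2-fold difference was kept by 18 and by 15. With the slide as a block 87 A_30_P probes passed, of which 16 were among the 125.

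The largest higher difference was that of A_30_P01031976. Its levels were −2.71, −2.62 and −2.79 in the GLE group and −4.49, −4.64 and −4.02 in the model group, where no array had it well above background. The groups lay far apart, by 1.68 ± 0.19 (SE, n = 3 per group; limma, unadjusted P = 4.79e-05, adjusted P = 0.462). With model levels raised, where lower, to the dimmest signal well above background on each array, the GLE signal was 2.89-fold higher. This is no lower limit, since some probes without a spot above background lay above that dimmest signal. A_30_P01032519 had levels of −2.66, −2.41 and −2.85 against −3.23, −5.19 and −4.17, a difference of 1.56 ± 0.45. Model replicate 1, on the slide of the GLE arrays, was the closest to them, and with the slide as a block the difference was 0.59 and did not pass. Its partner on the opposite strand, A_30_P01024716, overlaps it over 55 bases, was detected on all 6 arrays and had a difference of −0.12.

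The largest lower difference was that of A_30_P01025113, with levels of 0.64, 1.87 and 0.45 in the GLE group and 1.95, 3.87 and 2.73 in the model group. GLE replicate 2 lay just below model replicate 1, the groups did not overlap, and the difference was −1.87 ± 0.55 (SE, n = 3 per group; limma, unadjusted P = 0.0109, adjusted P = 0.462). Its 2 spots gave −0.30 and 1.58 in GLE replicate 1 and −0.17 and 1.06 in GLE replicate 3, and from the second spot alone the difference was −1.10 and did not pass. A_30_P01032666 had −3.45, −2.84 and −3.45 against −2.0, 0.42 and −2.69. Model replicate 2 stood far above the other tumors, and without it the difference went from −1.82 to −0.90. With the slide as a block neither passed (−0.97 and −1.24).

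The groups did not overlap for 1656 tested A_30_P probes (17.6%), against 17.4% of all tested probes, so this share was that of the array as a whole. Of the 125 called A_30_P probes, 95 were without overlap, as were 661 of the 937 called probes of the whole array. Detection on all GLE arrays and on no model array was found for 65 A_30_P probes (0.407%), against 0.322% of all probes. The opposite pattern was found for 3 (0.0188%), against 0.034% of all probes. The 65 had a median level of −3.16 in the GLE group and a median difference of 0.62. Against model replicate 1 on the same slide the median difference was 0.44, and 13 of them passed the threshold. When both spots had to be above background the counts were 42 (0.263%, against 0.303% of all probes) and 9 (0.0564%, against 0.045%), so that both orders against the background turned.

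Beside A_30_P01031976, the largest differences of the 65 were those of A_30_P01030770 and A_30_P01025153. A_30_P01030770 had levels of −3.12, −2.94 and −2.79 in the GLE group against −3.98, −4.95 and −4.33, 2.34-fold higher by the same rule. A_30_P01025153 had −3.13, −3.09 and −3.44 against −4.49, −4.49 and −4.69, 2.18-fold higher by that rule. It had 1 of its 2 spots above background on each GLE array. With normexp background correction the differences of these 3 probes were 0.17, 0.12 and 0.09, and none passed. The offset of 50 intensity units added there is large against the signal of probes this dim. It shrinks their log2 differences, so that setting could hardly give a 2-fold call and decides nothing about them. The 3 probes seen in the model group only were A_30_P01025663, A_30_P01017492 and A_30_P01020409, at differences of −0.92, −0.74 and −0.56 that did not reach 2-fold.

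The called probes were also set against their partners on the opposite strand. Of the 125, 28 had such partners, in 30 pairs, and in 20 of these pairs the partner was tested too. None of these partners was called, against 1.33% of all tested A_30_P probes and 1.74% of all tested probes. At such shares 20 pairs are too few to show a difference. The partner went the same way in 10 of 20 pairs, with a median of −0.02 in the direction of the called probe, whose own median size was 1.17. The partner of the Aak1 probe, A_30_P01018276, was detected on 1 array and was not tested.

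The spread between tumors of a group was close to that of the comparison probes, and its order depended on the number of spots. The median within-group SD was 0.252 for the tested A_30_P probes (2 spots) and 0.240 for the comparison probes (1 spot), which are brighter. With the comparison probes weighted to the signal of the A_30_P probes it was 0.273. From 1 spot per probe it was 0.284 for the A_30_P probes against 0.263, and from their other spot 0.266 against 0.262. Spread fell with signal, from 0.430 at levels of −4 to −3 to 0.197 at 1 to 2 for A_30_P probes, and from 0.544 to 0.182 for comparison probes. At levels of −4 to −3 the A_30_P probes thus varied less than the comparison probes and at 1 to 2 slightly more, by the mean of their spots. The 2 spots of a probe on 1 array, both above background, had a median SD of 0.0912 to 0.123, and over all A_30_P probes it was 0.122 to 0.169. This is the spread within an array and holds no labelling error and no hybridisation error shared by the whole array.

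The most variable A_30_P probes detected on all 6 arrays were of different kinds when their spots were read apart. A_30_P01022915 was low in GLE replicate 3 by both spots (−3.31 and −3.82), while its levels in the other tumors lay between −1.16 and −0.10. A_30_P01031638 had a level of 4.22 in GLE replicate 3 and 0.92 to 1.41 in the others, but its spots there were at 0.33 and 8.11. A_30_P01024054 had a level of 3.66 in model replicate 1 and 0.51 to 0.72 in the others, from spots at 0.69 and 6.63. The first was thus the same in both spots, and the other probes each rested on a single spot that was not flagged by the scanner software. The least variable probes, A_30_P01023303, A_30_P01017632 and A_30_P01031676, had a within-group SD of 0.015 to 0.025.

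Gaps of this kind between spots were rare. Of the 7765 to 8933 probes per array with both spots above background, 62 to 277 had spots more than 1 apart on the log2 scale, 2 to 18 had spots more than 2 apart, and 1 in GLE replicate 3 and 1 in model replicate 1 had spots more than 5 apart. They counted for more among the called probes: 29 of the 125 had spots more than 2 apart on some array, whether above background or not, against 427 of the 9385 tested. From the first spot of each probe alone 183 A_30_P probes passed the threshold (48 higher, 135 lower), and from the other spot alone 123 (60 higher, 63 lower). These were 2.07%, against 2.1% of all tested probes, and 1.38%, against 1.82%. Only 29 passed by both spots in the same direction, 11 higher and 18 lower, and over the 8523 probes tested by both spots the differences had a correlation of 0.59.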

How the data were processed

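RNA from the tumors of 3 GLE and 3 model mice, labelled with Cy3, was read on 1-colour Agilent arrays, 1 per mouse. The authors deposited the signal intensity of each spot from Feature Extraction 10.7.1.1, after background correction, without normalization across arrays. The authors' own log2 table, deposited beside it, follows the quantile-normalized log2 signal of each array and served as a second source of values.

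From the deposited intensity, control spots and outlier spots were left out, log2 was taken, spots of a probe were averaged, and the 75th percentile of each array over its probes was subtracted. Probes detected (at least 50% of spots well above background) on at least 3 of 6 arrays were tested with lmFit and eBayes of limma 3.58.1 (R 4.3.3), 2-sided, with Benjamini-Hochberg adjustment over all 53908 probes tested. Probes with a missing value on an array were not tested. Called probes had at least a 2-fold change with P under 0.05 before adjustment, the methods' threshold. Comparison probes were weighted to the A_30_P probes in bins 1 log2 unit wide, and bins with under 20 comparison probes were left out (49 A_30_P probes). The members, lists and tests were chosen with earlier results of these data known.

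Probes named are the 2 with the largest difference each way among called probes without overlap, the 5 brightest, up to 3 each way detected in all of a group and none of the other, the 3 most and 3 least variable, and matches to listed long non-coding RNAs. Others are said to be named after their values were seen. A probe without any array above background in a group has its fold taken against a raised signal. This was the larger of its own signal and the dimmest signal that was well above background on each array. Such a fold is no lower limit. Sequences came from the deposited files, and RefSeq tables (GRCm38.p6) gave gene starts and microRNAs; no genome was used here. The model was tested on simulated data. Alternatives were other scalings, normexp (offset 50), the deposited log2 values, other filters, the methods' t-test, replicate and slide blocks, and leaving out each array. The number of arrays limits the precision. With 3 mice against 3 an exact permutation test cannot go below P = 0.1.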

Additional observations from a re-analysis of the deposited data

How the results depend on the processing

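The count of 125 A_30_P probes past the threshold was 27 with normexp background correction, 201 with no detection filter, 74 among probes detected on all 6 arrays and 51 by the methods' t-test. The normexp offset of 50 intensity units shrinks the log2 differences of dim probes, so dim probes could hardly pass in that setting. Leaving out 1 array at a time gave 58 (without model replicate 2) to 291 (without model replicate 1). It was 81 without GLE replicate 1 and 237 without GLE replicate 2. The other alternatives gave 87 to 183, and the share of called probes was under that of all tested probes in each setting but 1, without model replicate 1 (3.19% against 2.98%). The shares were close from 1 spot per probe (2.07% against 2.1%), by the methods' t-test (0.543% against 0.569%) and without GLE replicate 3 (1.3% against 1.37%). With a replicate block the count was 125, and the correlation of deviations within a replicate number was −0.07, 0.01 and −0.13, which gives no sign that equal numbers pair the tumors.

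The median difference of the A_30_P probes, 0.013, was −0.085 after scaling to the array medians and −0.048 with normexp. It ranged from −0.023 to 0.026 when 1 array was left out. The share detected on at least 3 arrays, 58.8%, was 50.2% on all 6 arrays, 69.9% on at least 1 array, 87.5% by the more lenient mark, 55.3% from 1 spot per probe and 52.1% from both spots. It ranged from 56.4% to 58.3% when 1 array was left out. The A_30_P minus comparison difference in within-group SD at matched signal, −0.02, turned to 0.021 from 1 spot per probe and 0.003 from the other spot. It was −0.039 with no detection filter, and ranged from −0.024 to −0.001 when 1 array was left out. The alternatives on single spots, both spots and the 75th percentile over spots were chosen after seeing the data. Unless said above, the cause was not tested. Of the 125 calls, 97 were kept with quantile normalization, 26 with normexp and 16 with the slide as a block, and the direction turned for 1 probe under the slide block.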

Other observations

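An adjusted P-value under 0.05 was reached by 3 A_30_P probes in alternatives, and these were picked out after their values were seen. With the slide as a block it was A_30_P01032017 (limma, adjusted P = 0.0262, difference −5.34). Its level in model replicate 1 was 2.22, from spots at −3.35 and 7.79, and the other 5 tumors lay between −4.94 and −2.99. Without GLE replicate 2 they were A_30_P01021859 (limma, adjusted P = 0.041, difference 2.19) and A_30_P01028495 (adjusted P = 0.0288, difference −1.58). The spots of A_30_P01021859 in GLE replicate 3 were at 0.46 and −3.35. A_30_P01028495 had levels of −4.21 and −4.27 in GLE replicates 1 and 3, −2.95 in GLE replicate 2, and −2.71, −2.65 and −2.62 in the model group, and both of its spots were lower in GLE replicates 1 and 3 than in any other tumor.

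Some A_30_P probes share sequence with other probes of the array. On the same strand 137 shared at least 25 bases with a comparison probe and 279 with one of the remaining probes, and on the opposite strand 133 and 93.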
